A study of Mus musculus with 16 samples.

Results

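All 10 Mdr2-null tissues, 5 inflamed livers and 5 hepatocarcinoma nodules, were pooled and their H3K27Ac peaks were compared with those of 5 wild-type (WT) livers, to describe what separated null from WT tissue whatever the stage of disease. Merging the overlapping peaks of the 15 animals on chromosomes 1 to 19 gave 55617 regions, 3526 bp wide at the median. A region was called gained when at least 8 of the 10 null animals and 0 of the 5 WT animals had a peak in it, and lost when all 5 WT animals and at most 2 of the 10 null animals had one. By this rule 1015 regions were gained, 1.82% of all regions, and 215 were lost, 0.387% of all regions. The rule chose the regions by presence or absence of peaks, so these counts describe the lists and are not tests.

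H3K27Ac is an acetylated form of histone H3 found at active promoters and enhancers, and ChIP-seq recovers the DNA wrapped around histones that carry it. Mdr2, encoded by Abcb4, is the transporter that moves phosphatidylcholine from the hepatocyte into bile. Without it bile acids are not held in mixed micelles and injure the liver, and the mice pass through chronic inflammation to liver cancer. In liver, as in other tissues, the set of regions carrying this mark differs with the genes that the cells use.

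Each peak list came from 1 animal. The WT livers were from mice of strain FVB.129P2 and genotype Mdr2-WT, and the null samples were from strain FVB.129P2-Abcb4tm1Bor/J and genotype Mdr2-KO, a full-body knockout. The study's methods name the WT strain as FVB/NJ, so the strain of the WT livers is uncertain. By the sample labels, WT livers and nodules were taken at 14 to 19 months of age and inflamed livers at 7 to 8 months. Genotype thus cannot be told apart from younger age in the inflamed livers, nor from tumour growth in the nodules. The study's methods state that mice of both sexes were used, and the sex of each animal is not known here. An unequal share of the sexes between the groups thus cannot be told apart from genotype either. The study's text gives narrower ages for both null stages and calls the WT mice age matched without stating their age. All 15 animals, WT included, had received clodronate liposomes at 50 μg per g of body weight for 48 h, a treatment that removes macrophages, and all immunoprecipitations used 5 μg of the same H3K27Ac antibody. That dose is the one in the sample labels, and the study's methods state another amount. The tissue is a mixture of cell types, and a change in cell makeup cannot be told apart from a change within cells. Coordinates are those of the mouse build mm9. An annotation of that build was not used here, so regions are given by position, without gene names, and the tissues were not checked against marker genes.

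The lists differed in length between the groups being compared. WT livers had 25867, 27749, 29618, 27101 and 28277 peaks in animals 1 to 5. Inflamed livers had 37213, 37432, 40063, 38115 and 35188 peaks. Nodules had 26235, 38547, 41863, 29475 and 28118 peaks. Every inflamed liver thus exceeded every WT liver, while nodules 1, 4 and 5 lay within the WT range. The null mean of 35225 ± 5376 peaks (SD, n = 10) exceeded the WT mean of 27722 ± 1390 (SD, n = 5) by 7502.5 (exact two-sided permutation test, p = 0.0137, Benjamini-Hochberg adjusted p = 0.041 over 6 comparisons). Taken alone, inflamed livers exceeded WT by 9879.8 peaks (exact permutation test, adjusted p = 0.041) and the 5125.2 peaks by which the nodule mean lay above WT did not pass (exact permutation test, adjusted p = 0.219). The length of genome under peaks was 143 ± 22.3 Mb in null and 127 ± 15.2 Mb in WT tissue (SD), and this difference did not pass the test (exact permutation test, adjusted p = 0.219). Read counts were not used here and the sequencing depth behind each list is unknown. Nodule 1 had the least genome under peaks, 91.4 Mb, and WT 5 the least among WT livers, 108 Mb. Counts of members are given with and without these 2 animals. For its principal component plot of H3K27Ac, the study took 2 of the 15 samples out as outliers. The text read here does not name them, so whether they include nodule 1 or WT 5 is unknown. All 15 lists were kept here.

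The excess of gained over lost regions moved with list length. Gained regions made up 82.5% of the 1015 gained and 215 lost regions together. When every list was shortened to its 25867 best-scoring peaks, the same rule gave 408 gained and 440 lost regions, so that gained regions were 48.1% of both. Of the 1015 gained regions 290 (28.6%) were still called gained with equal lists, and of the 215 lost regions 157 (73%) were still called lost. Leaving out WT 5 and nodule 1 together, with again at most 2 null animals departing from the pattern, gave 2815 gained and 535 lost regions. Leaving animals out in this way only loosens the rule. All members of the full set stay called, so such counts could not fall and only the size of the rise is informative.

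**Figure D1:**
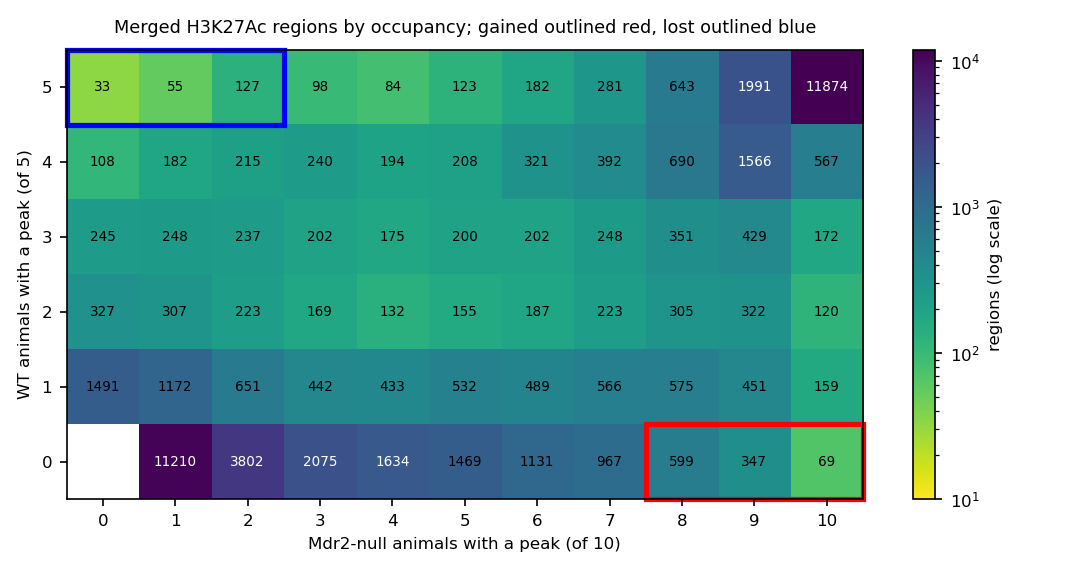
Number of merged H3K27Ac regions (colour, log scale) by how many of the 10 Mdr2-null animals (horizontal axis) and how many of the 5 WT animals (vertical axis) had a peak in them; the red outline marks gained and the blue outline lost regions. The corner with a peak in all 15 animals holds 11874 regions, the gained cells hold 599, 347 and 69, and the lost cells hold 33, 55 and 127.

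Most regions did not separate the genotypes. Every one of the 15 animals was represented in 11874 regions (21.3% of all), while 12701 regions came from 1 animal each. Just outside the gained regions were 967 with a peak in 7 null animals and no WT animal, beside the 599 with a peak in 8. A further 1185 regions had a peak in 8 to 10 null animals and in 1 WT animal. That WT animal was WT 5 in 799 of the 1185 (67.4%), and WT 4 in only 20. On the other side, 98 regions had a peak in all WT animals and 3 null animals, beside the 127 with 2 null animals. Of the 505 regions with a peak in 4 WT animals and at most 2 null animals, WT 5 was the one without a peak in 276 (54.7%) and WT 1 in 181. The size of both lists therefore hung on WT 5 more than on any other WT animal, as without it 1814 regions were gained and 491 lost.

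A test of each region was run on the 20802 regions whose occupancy over the 15 animals allowed an unadjusted p under 0.05. No region passed Fisher's exact test with Benjamini-Hochberg adjustment, with 0 called higher and 0 called lower in null tissue (0% each), although 3843 regions were higher and 932 lower at an unadjusted p under 0.05. The smallest adjusted p, 0.0679, belonged to the regions with a peak in all 10 null and no WT animal or the reverse, a pattern whose exact p of 0.000333 is the smallest that 10 animals against 5 allow. Without nodule 1 the same test called 339 regions higher and 42 lower. With equal lists 14792 regions could be tested by Fisher's exact test, and 1410 were higher and 1988 lower at an unadjusted p under 0.05. After adjustment 45 of these were called higher and 98 lower. The lean towards regions higher in null tissue thus moved with list length. An exact permutation test of the base pairs under peaks in the same 20802 regions called 145 higher (0.697%) and 158 lower (0.76%) in null tissue. Of the 145 regions, 61 were gained regions and 84 had a peak in at least 1 WT animal. Of the 158, 110 were lost regions and all 158 had a peak in some WT animal. Members chosen on the same contrast had to lean this way, so the overlap supports nothing by itself.

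In the full lists, the gained regions were held by the inflamed livers nearly without exception and by the nodules unevenly. Of the 1015 regions, 924 (91%) were occupied in each of the 5 inflamed livers and 81 (7.98%) in each of the 5 nodules. The most frequent pattern was 5 inflamed livers and 3 nodules, in 516 regions (50.8%), followed by 5 and 4 in 339. Only 69 regions had a peak in all 10 null animals. Of the inflamed livers, animals 1 to 5 had a peak in 1002, 995, 1006, 994 and 983 of the gained regions. Of the nodules, animals 1 to 5 had a peak in 244, 906, 1009, 740 and 726. Nodule 3, with the longest list, thus had as many as the inflamed livers, and nodule 1 lacked 771 (76%). With equal lists, inflamed livers 1 to 5 kept a peak in 66.5%, 57%, 68.6%, 61.8% and 61.3% of the 1015 regions. Nodules 1 to 5 then kept one in 23%, 47.7%, 81.1%, 58% and 62.6%. Only nodules 1 and 2 then lay below every inflamed liver. Without nodule 1 the rule gave 1901 gained and 253 lost regions, without nodule 4 it gave 1581 and 229, and without nodule 5 it gave 1736 and 259. Applied to each stage alone, with a peak in at least 4 of 5 animals and no WT animal, the rule gave 4419 regions for inflamed livers (7.95%) and 810 for nodules (1.46%), and both counts rest on the same 5 WT livers.

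**Figure D2:**
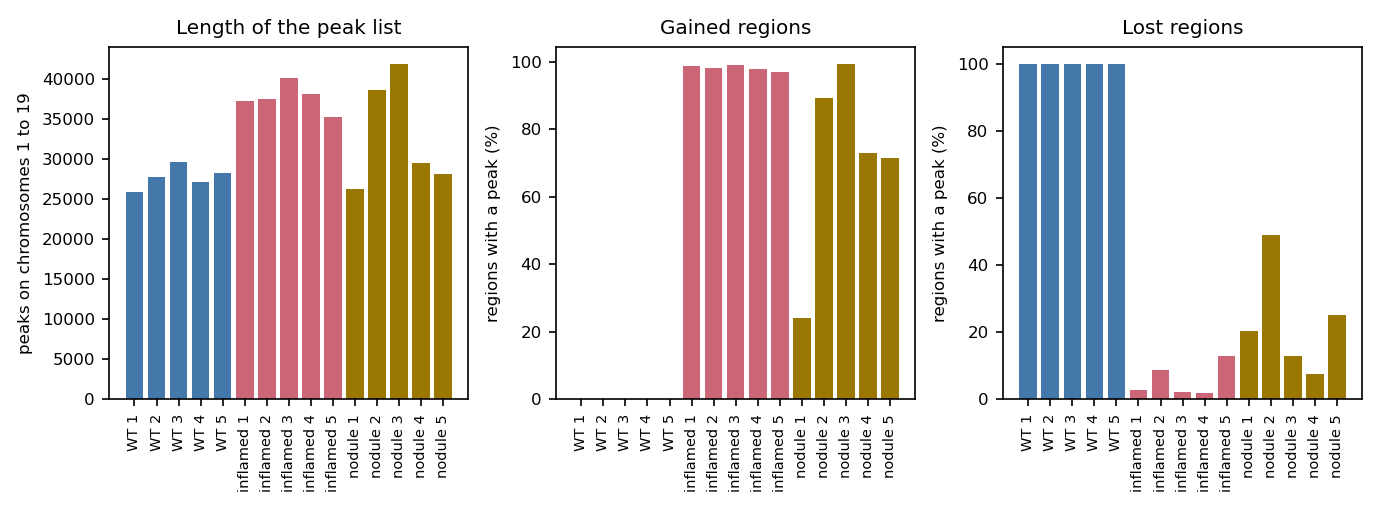
For each animal (WT blue, inflamed red, nodule brown), the number of peaks on chromosomes 1 to 19 (left), and the percent of the 1015 gained (centre) and 215 lost regions (right) with a peak. By the rule WT livers are at 0 in the centre and at 100 on the right; inflamed livers had a peak in 983 to 1006 gained regions, nodule 1 in 244, and nodule 2 in 105 lost regions.

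The lost regions were likewise more complete in the inflamed livers than in the nodules. No inflamed liver had a peak in 164 of the 215 regions (76.3%), and no nodule had one in 50 (23.3%). Only 33 regions lacked a peak in all 10 null animals. Inflamed livers 1 to 5 had a peak in 6, 19, 5, 4 and 28 of the lost regions. Nodules 1 to 5 had a peak in 44, 105, 28, 16 and 54. Nodule 2 had a peak in 105 of the 182 lost regions that were occupied in some null animal (57.7%) and was the sole null animal with one in 21, and the peaks in 82 of the 127 regions occupied in 2 null animals were both in nodules. For each stage alone, with a peak in all 5 WT livers and in at most 1 of 5 null animals, the rule gave 345 regions for inflamed livers (0.62%) and 282 for nodules (0.507%). The stages thus differed more in their own counts of gained than of lost regions, by values that were not tested against each other. These counts are from the full lists. Every inflamed list was longer than every WT list and than those of nodules 1, 4 and 5. Whether this contrast would remain with equal lists was not tested.

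The strength of the peaks in these regions was read as the percentile of the peak score within its own list, because scores of different lists are not on a common scale. In gained regions the median percentile was 38.3 over the null animals, against 32.9 for other regions with a peak in 8 to 10 animals. Across inflamed livers 1 to 5 the median percentile of gained regions was 38.6, 35.1, 43.8, 38.2 and 32.8. Across nodules 1 to 5 it was 22, 34.7, 58.9, 32 and 29.9. Gained regions therefore ranked in the lower part of most lists and in the upper part only in nodule 3, while regions with a peak in all 15 animals had a median percentile of 79.7 in null animals. In lost regions the median percentile was 32.2 in WT livers, against 21.1 for other regions with a peak in 5 to 7 animals. Where a null animal kept a peak in a lost region, its median percentile was 10.6 in inflamed livers and 28.1 in nodules. With equal lists, inflamed livers kept a peak in 0% to 0.93% of the 215 lost regions and nodules in 2.79% to 24.7%.

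Gained regions were wider than the average region. Most members had no other of their kind within 50 kb, but the share that did was larger than over all regions. Gained regions had a median width of 4741 bp (quartiles 3562 and 6909 bp) and lost regions 4061 bp, against 3526 bp for all regions. The median was 4072 bp for regions with a peak in 8 to 10 animals that were not members, and for such regions with 5 to 7 animals it was 3490.5 bp. In all, gained regions spanned 5.76 Mb and lost regions 1.00 Mb. Another gained region lay within 50 kb of 264 gained regions (26%), while 8.92% of all regions had a gained region that near. Another lost region lay within 50 kb of 28 lost regions (13%), against 1.76% of all regions. Few members of opposite kind were close: 5 gained regions (0.493%) had a lost region within 50 kb, and 6 lost regions (2.79%) had a gained one. With peaks up to 1000 bp apart merged first, so that fragments of 1 acetylated stretch count once, the shares near their own kind were 22.3% of 886 gained and 9.44% of 180 lost regions, against 7.62% and 1.36% of all regions so merged. Of gained regions 24.1%, and of lost regions 32.1%, lay within 10 kb of a region with a peak in all 15 animals, beside 26.4% of all regions.

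The 264 neighbouring gained regions formed 115 chains. The longest chain in members, 6 of the 9 regions in 93.6 kb, lay at chr13:20188294-20281876. Each of its members was occupied in the 5 inflamed livers and in 3 or 4 nodules. Chains of 5 members were at chr11:114740381-114867584, with 5 of 9 regions in 127 kb, and at chr19:40702412-40769694, with 5 of 8 regions in 67.3 kb. At chr1:64853209-64908662 all 4 regions were gained. The 28 neighbouring lost regions formed 13 chains, and the largest had 3 members each. They were at chr4:8672216-8707858, with 3 of 4 regions, and at chr12:73794105-73829657, where all 3 regions in 35.6 kb were lost. No inflamed liver had a peak in any of these 6 lost regions, and each had a peak in 1 or 2 nodules.

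Gained and lost regions were spread over all 19 chromosomes in unequal shares. Gained regions made up from 1.34% of the regions of chromosome 8 to 2.58% of those of chromosome 13. Lost regions made up from 0.168% of the regions of chromosome 19 to 0.668% of those of chromosome 8. Chromosome 13 had 71 gained and 5 lost regions and chromosome 10 had 77 and 14, while chromosome 8 had 38 and 19 and chromosome 4 had 48 and 23. In windows of 5 Mb, the highest count of gained regions was 12 of 151 regions (7.95%), between 15 and 20 Mb of chromosome 10. The highest counts of lost regions were 5, in the window from 75 to 80 Mb of chromosome 11 (of 255 regions) and in that from 70 to 75 Mb of chromosome 12 (of 224).

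The members that separated the genotypes most fully are named below by rank, as gained 1 to 10 (a peak in all 10 null and no WT animal) and lost 1 to 10 (the reverse), in order of the median score percentile. Gained 1, at chr3:9661862-9672615, ranked highest, with a median percentile of 89.4 over the null animals. Peaks covered 8999, 8229, 9570, 8358 and 8414 bp of it in inflamed livers 1 to 5. In nodules 1 to 5 they covered 8577, 7505, 10754, 9126 and 9915 bp. The 2 stages overlapped in covered length, and nodules held both the narrowest and the widest peak.

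Gained 2, at chr1:133003157-133010265, had 6692, 7053, 6875, 4965 and 6667 bp under peaks in the inflamed livers. Nodules had 2522, 1711, 7105, 6997 and 6563 bp. Nodules 1 and 2 were below every inflamed liver and the other nodules were not. Gained 9, at chr7:130248256-130255745, had 6957, 7069, 7011, 6165 and 6788 bp in inflamed livers. Its nodules had 1524, 1794, 7056, 4766 and 1937 bp. In that region only nodule 3 reached the range of the inflamed livers.

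Gained 3, at chr2:19605370-19617013, had 5852, 4057, 3681, 3694 and 5326 bp in inflamed livers and was most spread in nodules, with 3166, 6905, 4191, 2174 and 11644 bp. Gained 5, at chr2:157324136-157328774, was narrower and even, with 2907, 3020, 2771, 2641 and 3136 bp in inflamed livers. Its nodules had 2205, 2843, 3454, 2821 and 4189 bp. The stages thus overlapped in both regions, and the value furthest from the rest was that of nodule 5 in gained 3. The other named gained regions were gained 4 at chr1:179669825-179679478, gained 6 at chr2:120340283-120347694, gained 7 at chr11:68518465-68522173 and gained 10 at chr13:21869607-21880265. Their median score percentiles ran from 66 to 75.1. Gained 8, lost 7 and lost 8 lie on chromosome 18 and are given by rank, without positions.

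**Figure D3:**
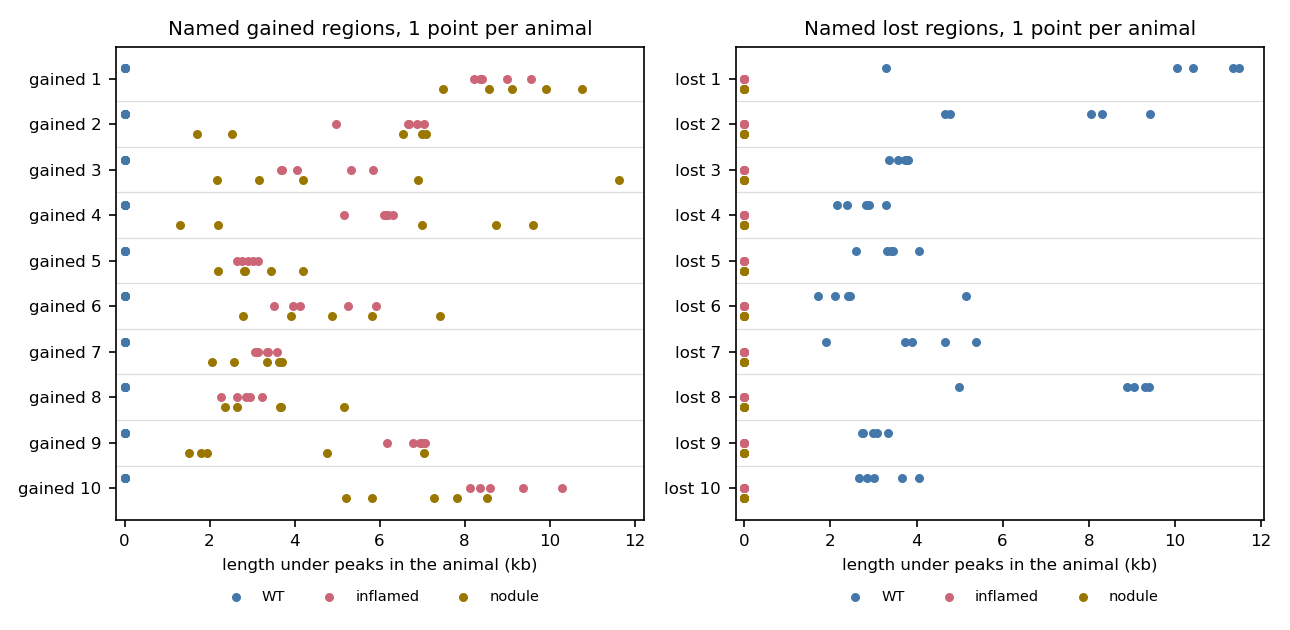
Length under peaks (kb) in each animal for the 10 named gained (left) and 10 named lost regions (right), 1 point per animal, WT blue, inflamed red and nodule brown. WT points lie at 0 on the left and null points at 0 on the right because the rule required it; in gained 9 the nodule points run from 1524 to 7056 bp and those of nodules 1, 2, 4 and 5 lie below every inflamed point, and in lost 1 WT 1 lies apart at 3295 bp.

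Lost 1, at chr9:102303442-102315095, had 3295, 10058, 11494, 11346 and 10429 bp under peaks in WT livers 1 to 5, with a median percentile of 87.5. WT 1 covered less of it than the other WT livers. Lost 2, at chr5:128429779-128439196, had 4658, 9418, 8309, 8050 and 4781 bp, with WT 1 and WT 5 lowest. Lost 3, at chr11:3945929-3949773, had 3726, 3808, 3570, 3349 and 3778 bp, nearly the same length in every WT liver. Lost 5, at chr2:73452824-73456884, had 4061, 3313, 3452, 3410 and 2588 bp, with WT 5 lowest. It lay beside another lost region, the pair spanning chr2:73444573-73456884, and the other member kept a peak in 2 inflamed livers and in no nodule. The other named lost regions were lost 4 at chr3:145753028-145756354, lost 6 at chr7:134691338-134696506, lost 9 at chr12:109564657-109568192 and lost 10 at chr3:100308383-100312447. Between 1701 and 5139 bp of these lay under peaks in the WT livers.

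Whether the members held in an animal that had no part in their choice was read by choosing them anew from the other 14 animals, each time with at most 2 null animals departing from the pattern. Gained regions chosen without a given inflamed liver had a peak in it in 87.6% to 97.4% of cases, against 72.1% to 78.2% for other regions occupied in the same range of animals. For nodules 1 to 5 the share was 12.8%, 65.6%, 95.1%, 46.8% and 41.8%, against 38.3%, 68.4%, 71.8%, 39.2% and 39.6% for the other regions. For WT 1 to 5 it was 9.38%, 9.78%, 13%, 1.93% and 44%, against 40.7% to 59.7%. Each inflamed liver and WT 1 to WT 4 thus read the gained pattern as their group had, and nodule 3 read it well above the other regions. Nodules 4 and 5 lay slightly above the other regions and nodules 1 and 2 below them, and WT 5 had a peak slightly more often than in the other regions.

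Lost regions chosen without a given WT liver had a peak in it in 54.3%, 91.5%, 97.3%, 90.7% and 43.8% of cases for WT 1 to 5, against 13.2% to 23.4% for other regions. For inflamed livers the share was 6.25% to 27.2%, against 56.7% to 69.2%. For nodules 1 to 5 it was 32.4%, 61.1%, 23%, 13.1% and 37.8%, against 19.5%, 44%, 57.5%, 24.3% and 26.5%. All 5 WT livers had a peak more often than in the other regions, though WT 5 had one in only 43.8%. All 5 inflamed livers and nodules 3 and 4 had one less often, and nodules 1, 2 and 5 more often. The other regions were matched by number of animals alone, not by group. They include many held by null animals only, such as 1131 with a peak in 6 null animals and no WT animal. Such regions lower the WT share and raise the null share of the comparison. The side on which an animal fell is therefore no test of the lost pattern.

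**Figure D4:**
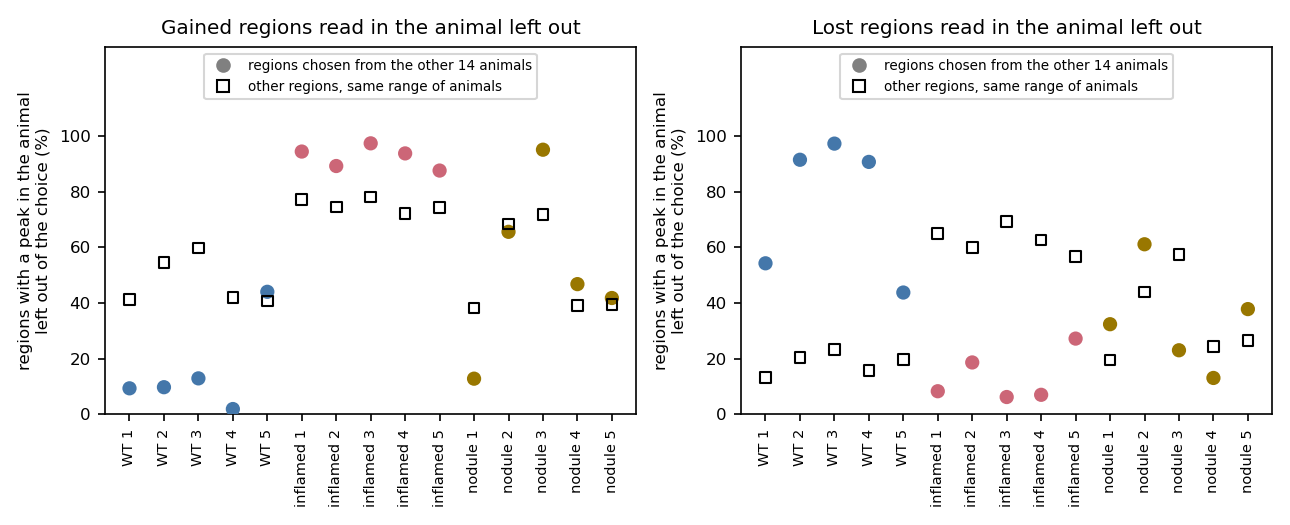
Percent of gained (left) and lost regions (right), chosen from the other 14 animals, that had a peak in the animal left out (filled points, WT blue, inflamed red, nodule brown), beside other regions occupied in the same range of animals (open squares). On the left the inflamed livers lie at 87.6% to 97.4% and the nodules from 12.8% to 95.1%; on the right WT livers lie at 43.8% to 97.3%.

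The 11874 regions with a peak in every animal took no part in the rule, and in them null and WT tissue differed in how much of the region lay under peaks. The covered length in each animal was put on the log2 scale and centred on the median of that animal, since the median covered length ran from 3409 bp in nodule 1 to 5781 bp in nodule 5. An exact two-sided permutation test of 10 null against 5 WT animals with Benjamini-Hochberg adjustment called 242 regions wider (2.04%) and 241 narrower (2.03%) in null tissue. In 121 regions (1.02%) all 10 null animals lay above all 5 WT animals, and in 134 (1.13%) all lay below. A model fitted across all 11874 regions with limma, with inflamed livers and nodules as separate groups and their mean set against WT, called 427 wider (3.6%) and 400 narrower (3.37%). It called again 222 of the 242 and 208 of the 241. Without nodule 1 the permutation test called 466 wider and 633 narrower, and without WT 5 it called 365 and 357. Leaving out WT 1, 2, 3 or 4 gave 0 and 0 by the permutation test, whereas limma then called 225 to 284 wider and 189 to 249 narrower. Leaving out an animal also raises the smallest p that the permutation test can reach. Centring moved these counts by more than 1.5 times, as uncentred lengths gave 95 wider and 91 narrower.

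Set against WT one stage at a time in the same limma model, inflamed livers had 444 wider and 457 narrower regions and nodules had 226 and 187. The exact permutation test of 5 animals against 5 called 0 wider and 0 narrower for either stage, with a smallest adjusted p of 0.0527 for inflamed livers and 0.217 for nodules. The smallest p this permutation test can reach is 0.00794, so passing the adjustment required many regions at that floor together. The counts of 0 therefore do not show that either stage was like WT. At an unadjusted p under 0.05 that test gave 1499 wider and 2100 narrower regions for inflamed livers and 586 and 800 for nodules. The comparisons share the 5 WT livers. By limma both stages were called wider in 137 regions and narrower in 88, and 2 regions were called in opposite directions. The difference between nodules and inflamed livers itself was called in 158 regions, 89 wider and 69 narrower in nodules.

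The 6 most changed regions in each direction, by smallest p and then size, were chosen after their values were seen. Wider 4, at chr8:11302782-11343250, had 4038, 8705, 6740, 5351 and 6399 bp under peaks in WT livers 1 to 5. Inflamed livers had 23901, 21599, 26284, 21324 and 19306 bp and nodules had 19948, 27373, 40469, 30208 and 22259 bp. Every null value was above every WT value, and on the centred log2 scale the difference was 2.03 ± 0.20 (SE; exact permutation test, adjusted p = 0.0217). Wider 5, at chr15:38374092-38392572, had 3168, 3243, 3138, 3212 and 2691 bp in WT livers. Inflamed livers had 11213, 11913, 12292, 10111 and 11958 bp and nodules had 14529, 7370, 17996, 16679 and 10697 bp. WT livers were nearly equal, nodules were spread on both sides of the inflamed livers, and the log2 difference was 1.98 ± 0.15 (SE). Wider 1, at chr11:8498989-8531017, had the largest log2 difference of the 6, 2.34 ± 0.43 (SE), with 2006 to 9299 bp in WT livers and 13389 to 31904 bp in null tissue. Wider 2, at chr19:41515893-41534333, differed by 2.21 ± 0.25 (SE). Wider 3 and wider 6, at chr15:78416669-78432943 and chr2:167196158-167219172, differed by 2.05 and 1.96. In wider 3 nodule 1, at 4263 bp, lay below WT 2, at 4434 bp, and the groups separated only after centring.

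Narrower 1, at chr4:140075555-140094410, had 13663, 18374, 15125, 14192 and 18084 bp under peaks in WT livers. Inflamed livers had 1667, 7856, 1808, 2074 and 1574 bp and nodules had 1969, 12649, 1616, 2551 and 1911 bp. All null values were below all WT values, with inflamed 2 and nodule 2 closest to them, and the log2 difference was -2.59 ± 0.36 (SE; exact permutation test, adjusted p = 0.0217). Narrower 5, at chr9:61999116-62006797, had 5798, 6431, 6460, 6411 and 7193 bp in WT livers. Inflamed livers had 2914, 2874, 2707, 2614 and 2716 bp and nodules had 2421, 5321, 1952, 2715 and 2842 bp. Nodule 2 was again the null animal closest to WT, and the log2 difference was -1.19 ± 0.17 (SE). Narrower 2 and narrower 3, at chr8:125678531-125689003 and chr12:21320667-21332241, differed by -1.36 and -1.30. Narrower 4 and narrower 6, at chr11:90126837-90137798 and chr6:91580772-91588600, differed by -1.20 and -1.05. In narrower 4 the groups overlapped in covered length and separated only after centring. There WT 5, at 4080 bp, lay below inflamed 5 at 4126 bp, nodule 2 at 4360 bp and nodule 5 at 5546 bp.

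**Figure D5:**
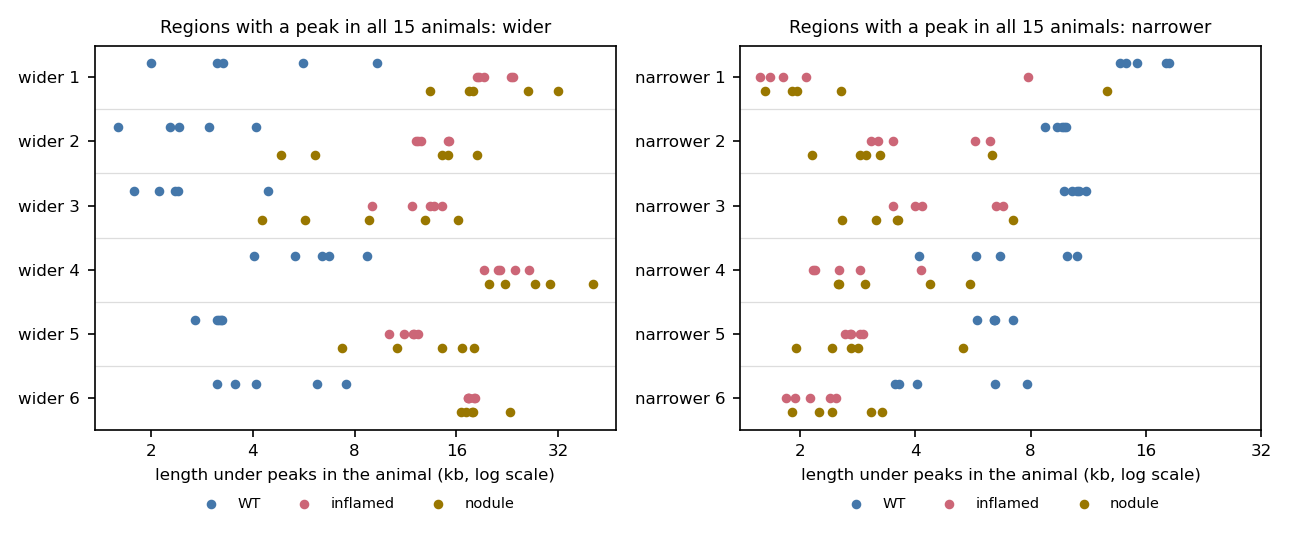
Length under peaks (kb, log scale) in each animal for 12 regions with a peak in all 15 animals, 6 wider (left) and 6 narrower in null tissue (right), 1 point per animal, WT blue, inflamed red and nodule brown. In wider 5 WT livers lie between 2691 and 3243 bp and null animals between 7370 and 17996 bp; in narrower 1 WT livers lie between 13663 and 18374 bp and null animals between 1574 and 12649 bp.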

How the data were processed

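H3K27Ac ChIP-seq peak lists of 15 animals were analysed: 5 WT livers, 5 inflamed Mdr2-null livers and 5 Mdr2-null nodules. According to the submitters' processing notes, the authors used Bowtie 0.12.7 and MACS 1.4 with build mm9. The deposited lists give the position of each peak and the peak caller's score, with a lowest value of 50. Many peaks tied at 3100 (9.65% to 24.6% of each list), so the score was used only to rank peaks within a list. The control and filters of peak calling are not given in the sources used here, and the IgG control was not analysed here. Replicates were numbered in accession order, and nothing pairs animals across groups.

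Peaks on chromosomes 1 to 19 were used. A region was occupied when at least 1 bp lay under a peak. Counts per animal were tested by exact two-sided permutation (3003 assignments, smallest p 0.000333). For permutation of 1 stage against WT there were 252 assignments and the smallest p was 0.00794. Occupancy was tested by Fisher's exact test, and covered length by permutation and by limma 3.58.1 in R 4.3.3. Benjamini-Hochberg adjustment at 0.05 was used. Named regions were the 10 per direction with the largest difference in occupancy, ties broken by the median score percentile. Scripts were tested on simulated data. Alternatives were equal lists, the better 50% of each list, 50% coverage, bins of 1000 bp, merging within 1000 bp, other occupancy thresholds, chromosome X and leaving out animals. The members and lists were chosen with earlier results of these data known. The tests on regions shared by all animals, and their alternatives, were added after seeing the data. Tests around gene starts were planned and not run, as an annotation of build mm9 was not used here. Computation used Python 3.11.15, NumPy 2.4.6, SciPy 1.17.1 and matplotlib 3.10.9.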

Additional observations from a re-analysis of the deposited data

Results flagged for a closer look

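In 90 sets of values from 5 animals of a group, 14 had an animal whose gap to its nearest neighbour exceeded Dixon's 95% critical value of 0.71 of the range. Chance gives about 1 in 20, or 4.5 of 90, and the sets share animals. Nodule 2 lay closest to WT in 4 of the 6 narrower regions, with 12649 bp under peaks in narrower 1, 6358 bp in narrower 2, 7211 bp in narrower 3 and 5321 bp in narrower 5. Inflamed 2, at 7856 bp, stood apart from the other inflamed livers in narrower 1. Nodule 3, with 23015 bp, stood above the other nodules in wider 6. Among inflamed livers, inflamed 4 covered least of gained 2, with 4965 bp, and of gained 4, with 5154 bp. Among WT livers, WT 1 covered least of lost 1 and lost 8, with 3295 and 4990 bp, and WT 2 covered most of lost 6, with 5139 bp, and of wider 3, with 4434 bp. WT 5 covered least of wider 5, with 2691 bp, and had a peak in 44% of the gained regions chosen without it.

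The effects of the 2 stages against WT differed by their own test in 158 of the 11874 regions shared by all animals, 89 wider and 69 narrower in nodules than in inflamed livers (limma with Benjamini-Hochberg adjustment).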

How the results depend on the processing

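Gained and lost regions numbered 1015 and 215. They were 476 and 90 with the better 50% of each list, 408 and 440 with equal lists, 4319 and 1666 as bins of 1000 bp, 69 and 33 when all 10 null animals had to follow the pattern, 2200 and 720 when 1 WT animal could depart, and 2815 and 535 without WT 5 and nodule 1. With the better 50% of each list 40 of the 1015 and 6 of the 215 members were still called. Without each animal in turn gained regions ranged from 1033 to 1901 and lost regions from 221 to 491. Leaving animals out loosens the rule, so these counts could not fall below those of the full set. A threshold of 50% coverage, merging within 1000 bp and adding chromosome X moved both counts by less than 1.5 times. Regions passing a test of each region numbered 0 by occupancy and 303 by base pairs under peaks. They were 143 with equal lists, 45 higher and 98 lower in null tissue, and 0 to 381 without each animal in turn. The difference in number of peaks was 5125.2 with nodules alone and no longer passed the test, and ranged from 6764.9 to 8501.4 without each animal. The difference in genome covered ranged from 12.4 to 22.8 Mb, and it passed at an unadjusted p of 0.0155 (exact permutation test) without nodule 1. Shared regions called wider and narrower numbered 242 and 241. They were 95 and 91 uncentred, 30 and 64 among the 6400 regions with 1 peak in every animal, 427 and 400 by limma, and 516 and 566 without WT 5 and nodule 1. Without each animal in turn they ranged from 0 to 466 and from 0 to 633 by the permutation test, and from 225 to 620 and from 189 to 703 by limma. The cause of these shifts was not tested. Of 60 values of named regions under 3 alternatives, 24 moved by at least 20 percentage points and 0 reversed. The largest moves came with 50% coverage. There the percent of null minus the percent of WT animals went from 100 to 30 in gained 3 and from -100 to -20 in lost 6. Depth and the sex of each animal are unknown here, and list length differs between groups. Genotype cannot be told apart from age in inflamed livers or from tumour growth in nodules. No paired analysis was possible because nothing pairs the animals across groups.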
